A study of Mus musculus with 3 samples.

Results

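The genes described here are *Gata2*, *Tal1*, *Lyl1*, *Lmo2*, *Fli1*, *Erg* and *Ldb1*, which encode transcription factors and cofactors used by both endothelium and blood. These 7 genes were taken by name from the 27,985 genes of a single-cell count table, and all 7 were found. Each was followed across the 7 cell clusters that the authors deposited and, cell by cell, together with the others. The cells were endothelial cells of the adult heart of 12–16-week-old female mice that carry GFP, sorted either fresh (0 h) or after 24, 48, 72 and 96 h in co-aggregates with *Mesp1*der PSCs, which are PDGFRA+ stromal cells of the E11.5 aorta–gonad–mesonephros. GFP marked the heart cells within the co-aggregate. The starting gate took GFP+CD31+VE-Cad+ cells without CD41, CD45, PDGFRA or PDGFRB, and cells were taken back out of the co-aggregates as GFP+CD31+VE-Cad+PDGFRA-. The medium held 20% fetal calf serum and, at 100 ng per ml each, SCF, Flt3L and IL-3. Mice and culture times were combined in 3 pools, so a cell belongs to neither a known animal nor a known time.

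TAL1 and LYL1 are related basic helix–loop–helix (bHLH) factors that bind DNA together with a ubiquitous bHLH partner. LMO2 has no DNA-binding activity of its own and bridges them to a GATA factor, and LDB1 joins such complexes to each other and loops distant enhancers to promoters. FLI1 and ERG are ETS factors that maintain endothelial identity and are also needed in blood stem cells. In early blood formation these proteins occupy many of the same enhancers as RUNX1, a group of factors known as the heptad, and several of their genes are regulated by the group itself. LDB1 is not one of the heptad and was included as the bridge of the complex, whereas *Runx1* was kept as a gene for comparison.

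The count table held 9,562 cells, the number that the study states, with 252,339,042 unique molecular identifiers (UMIs, counted molecules of messenger RNA). Barcodes carry library suffixes 1, 2 and 3, which are tied to none of the pools, and 13 barcode sequences occurred under more than 1 suffix. Median depth was 23,651, 13,440.5 and 38,312 UMIs per cell in suffix 1, 2 and 3. Of the cells, 90 were below 5,000 UMIs, the minimum named in the methods. By cluster the median ran from 7,875 UMIs in cluster 1 to 36,065.5 in cluster 5. No test was run, because these counts also defined the clusters and no source ties a suffix to a sample, and values within each library stand beside the sums instead. A level below is the summed UMIs of a gene per 10,000 UMIs of the group, its interval is the exact Poisson 95% interval, which covers counting error only, and the range over the 3 libraries stands beside it. Levels compare a gene between clusters, never one gene with another, because capture differs between genes. Clusters 0, 1 and 2 (728, 799 and 5,396 cells) carried the endothelial list of 8 markers at a summed level of 52.65, 53.4 and 38.3, against 4.26 to 6.55 in the other clusters. The arterial list (*Gja5*, *Gja4* and *Sox17*) reached 22.4 in cluster 0 and 3.19 or less elsewhere, and the megakaryocyte list 200.5 in cluster 6 (310 cells) and 1.94 or less elsewhere. Cluster 5 (1,572 cells) carried the granulocyte list at 15.6 and the macrophage list at 18.2, cluster 4 (518 cells) the stromal list at 17.3 and cluster 3 (239 cells) the list of pluripotent or germ cell genes at 34.4. Clusters 3 to 6 were thus low in the endothelial list, which includes *Pecam1* (CD31) and *Cdh5* (VE-Cad) of the gate, and all 8 had UMIs in every cluster. The clusters were made by the authors from the same counts and numbered from high *Cdh5* to high *Runx1*, so differences between them are descriptions.

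The 7 genes did not share a single pattern across clusters. *Tal1* and *Lyl1* were highest in cluster 6, *Gata2* and *Ldb1* in cluster 0, *Lmo2* in clusters 2, 0 and 6, and *Fli1* in cluster 6. *Erg* was high in clusters 0, 1 and 2 and low in the other 4. *Ldb1* varied least, between 0.397 and 0.674 UMIs per 10,000.

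**Figure D1:**
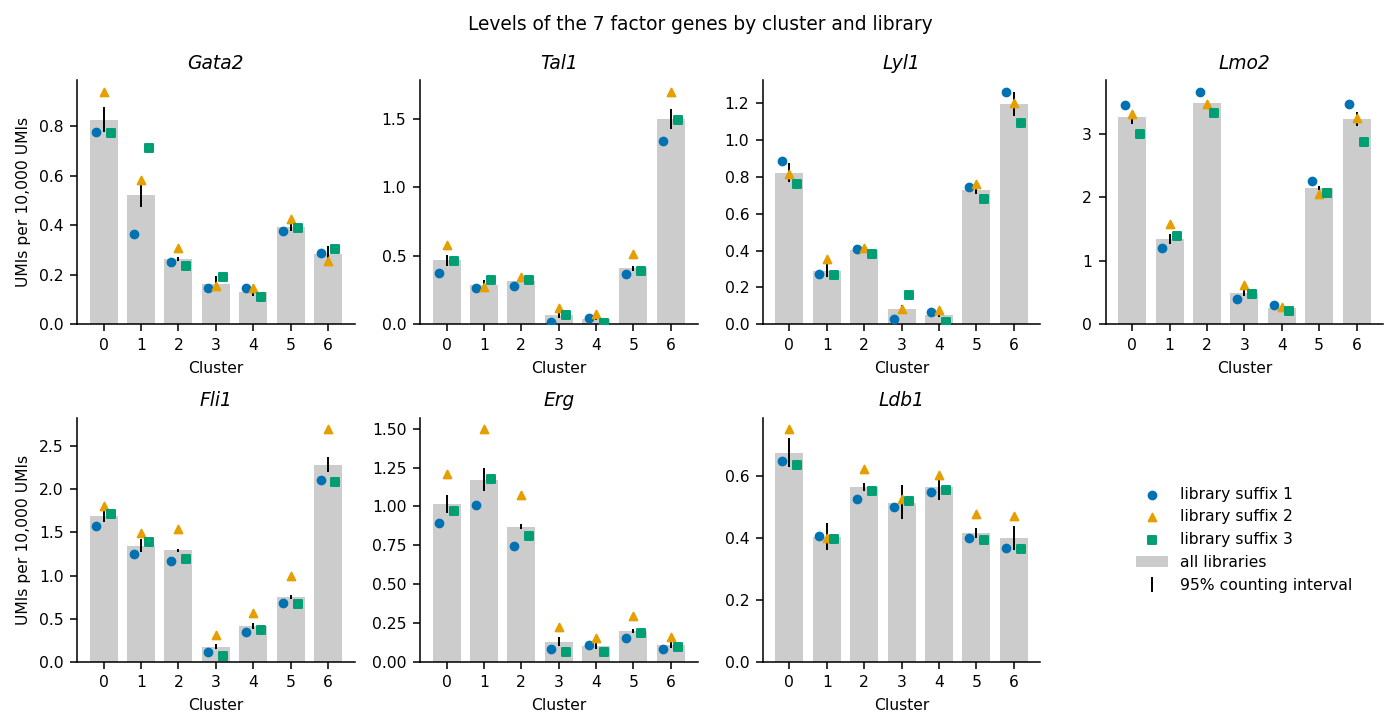
Level of each of the 7 genes (UMIs per 10,000 UMIs, a separate linear axis for each gene) in clusters 0 to 6. Bars are all libraries summed, black lines the 95% counting interval and coloured points the 3 libraries: *Tal1* stands at 1.495 in cluster 6 against 0.466 or less elsewhere, and *Erg* at 0.869 or more in clusters 0, 1 and 2 against 0.199 or less elsewhere.

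The bHLH genes *Tal1* (ENSMUSG00000028717, GRCm38 chr4:115056426-115071755, plus strand) and *Lyl1* (ENSMUSG00000034041, chr8:84701457-84704715, plus strand) had the most similar profiles of the 7. The level of *Tal1* in clusters 0 to 6 was 0.466, 0.285, 0.317, 0.0673, 0.0414, 0.409 and 1.495 UMIs per 10,000. In cluster 6 the libraries gave 1.34, 1.70 and 1.49, all above the highest library value of any other cluster (0.577, in cluster 0). Clusters 0 and 5 followed with overlapping library ranges (0.374–0.577 and 0.3685–0.513), and clusters 2 and 1 did not differ beyond their counting intervals. Above 0.5 counts per 10,000 UMIs of the cell (CPTT), *Tal1* was found in 88.4% of the cells of cluster 6 and 31.2% of those of cluster 5. For *Lyl1* the levels in clusters 0 to 6 were 0.820, 0.290, 0.401, 0.0827, 0.0515, 0.725 and 1.19. Its order was cluster 6 (library range 1.09–1.26), cluster 0 (0.762–0.883), cluster 5 (0.678–0.760), cluster 2 (0.381–0.4155) and cluster 1 (0.267–0.3555), and none of these 5 ranges overlapped with its neighbour. Both genes were thus above their level in cluster 2 in clusters 0, 5 and 6. The step from cluster 0 to cluster 6 was larger for *Tal1* (0.466 to 1.495) than for *Lyl1* (0.820 to 1.19). The gene *Nfix* overlaps *Lyl1* on the opposite strand, and whether strand was used in counting is not given in the sources used here.

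Because *Tal1* and *Lyl1* varied together and *Erg* did not follow them, the stretches before their starts are shown for comparison of the letters that GATA and ETS factors recognise. RefSeq promoter windows were at hand for 5 of the 7 genes (11 windows, GRCm38.p6), and the 250 bases before each start were searched on both strands. The GATA core was searched with the letters GATAA or, on the opposite strand, TTATC. The ETS core was searched only in the form AGGAA or, on the opposite strand, TTCCT, and below the name means this form. Other forms of the ETS core, which begin with another letter, were not searched and carry no capitals. The GATA core was found in 3 of the 11 windows and the ETS core in 5, and over all 32,851 windows of the same length 22.6% held the GATA core and 60.3% the ETS core. Capitals mark these matches, which do not overlap in the windows printed. The first window ends at the base before *Tal1* and lies in no annotated gene (chr4:115056176-115056425, plus strand), the second ends at the base before *Lyl1* within an intron of *Nfix* (chr8:84701207-84701456, plus strand), and the third precedes an internal start of *Erg* and lies in an intron of it (chr16:95459349-95459598, minus strand).
Tal1: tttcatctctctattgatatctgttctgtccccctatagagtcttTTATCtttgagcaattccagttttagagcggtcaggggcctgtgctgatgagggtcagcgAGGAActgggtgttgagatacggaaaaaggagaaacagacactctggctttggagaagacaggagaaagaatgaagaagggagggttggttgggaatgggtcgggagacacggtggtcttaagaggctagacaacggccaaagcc
Lyl1: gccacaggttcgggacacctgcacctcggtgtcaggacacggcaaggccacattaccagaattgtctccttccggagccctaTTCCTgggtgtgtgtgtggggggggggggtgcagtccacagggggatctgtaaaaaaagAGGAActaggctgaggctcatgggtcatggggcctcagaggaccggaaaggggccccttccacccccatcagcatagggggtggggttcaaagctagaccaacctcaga
Erg: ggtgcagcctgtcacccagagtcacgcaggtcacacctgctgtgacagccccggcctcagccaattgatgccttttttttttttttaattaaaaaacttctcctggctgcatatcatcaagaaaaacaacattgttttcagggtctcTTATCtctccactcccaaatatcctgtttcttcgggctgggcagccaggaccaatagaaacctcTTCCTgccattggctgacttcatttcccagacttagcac
The *Tal1* window held 1 match to each motif, the *Lyl1* window 2 to the ETS core and none to the GATA core, and the *Erg* window 1 to each. For *Tal1* and *Erg* the windows with the most matches are shown. The other *Tal1* window held none, and of the other *Erg* windows the one directly before the gene held none and the second 1 to the ETS core. Neither of the 2 *Gata2* windows held a match. A match is a run of letters and no evidence of binding.

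*Lmo2* (ENSMUSG00000032698, chr2:103957986-103981878, plus strand), the bridge, was at 3.25, 1.35, 3.48, 0.498, 0.259, 2.14 and 3.22 UMIs per 10,000 in clusters 0 to 6. Clusters 2, 0 and 6 formed the upper group, and their library ranges (3.33–3.655, 2.996–3.45 and 2.87–3.465) overlapped. Cluster 5 (2.055–2.26) and then cluster 1 (1.205–1.58) lay below without overlap. Of the 7 members *Lmo2* had the greatest fold between clusters 1 and 2. The share of cells with *Lmo2* over 0.5 CPTT was 93.05%, 90.3% and 53.8% in clusters 2, 6 and 1, the last being the shallowest. *Ldb1* (ENSMUSG00000025223, chr19:46031570-46045214, minus strand), its partner, was at 0.674, 0.401, 0.564, 0.513, 0.563, 0.416 and 0.397. The lowest values, in clusters 5, 1 and 6, did not differ from each other beyond counting error, and clusters 2, 4 and 3 followed each other with overlapping counting intervals. *Ldb1* was the only member whose level in cluster 4 overlapped with that in cluster 2. On the opposite strand *Lmo2* overlaps 4931422A03Rik and *Ldb1* overlaps *Pprc1*.

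*Gata2* (ENSMUSG00000015053, chr6:88193891-88207032, plus strand), the GATA factor of early progenitors and of endothelium, was at 0.824, 0.522, 0.264, 0.163, 0.133, 0.392 and 0.282 UMIs per 10,000 in clusters 0 to 6. It was the member with the largest fold between the highest and lowest of clusters 0, 1 and 2. The libraries gave 0.777, 0.937 and 0.772 in cluster 0, against 0.252, 0.308 and 0.237 in cluster 2. In cluster 1 the libraries ranged widely, at 0.365, 0.582 and 0.710, and overlapped with those of cluster 5 (0.376–0.424). Clusters 6 and 2 did not differ beyond their intervals. The share of cells above 0.5 CPTT was 55.5% in cluster 0 and between 18.7% and 21.8% in clusters 2, 5 and 6.

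The ETS genes *Fli1* (ENSMUSG00000016087, chr9:32422204-32542861, minus strand) and *Erg* (ENSMUSG00000040732, chr16:95359169-95586593, minus strand), which encode near relatives, went apart in cluster 6. *Fli1* was at 1.695, 1.35, 1.29, 0.174, 0.411, 0.7503 and 2.29 UMIs per 10,000 in clusters 0 to 6. The libraries of cluster 6 (2.105, 2.70 and 2.09) were above every other value of *Fli1*, followed by cluster 0 (1.57–1.81), and clusters 1 and 2 overlapped. *Erg* was at 1.02, 1.17, 0.869, 0.129, 0.102, 0.199 and 0.109. Its libraries in clusters 0, 1 and 2 ranged from 0.745 to 1.497 with overlap between clusters 1 and 0 and between clusters 0 and 2, whereas those of clusters 3 to 6 ranged from 0.0624 to 0.296. In cluster 5 the libraries gave 0.156, 0.296 and 0.1855, and in cluster 6 they gave 0.08015, 0.157 and 0.0954. Library suffix 2 gave the highest value of both genes in every cluster and was the shallowest of the 3. On the same strand *Fli1* overlaps small or provisional transcripts, and the antisense gene Gm27201 lies opposite.

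A droplet can hold some free RNA from other cells. No profile of empty droplets was used, and clusters 3 and 4 (medians of 23,684 and 19,475.5 UMIs per cell), which were low in the 8 endothelial markers, served as a reference, with each member read beside those markers in the same cells. In cluster 4 these markers stood at 7.21% to 14.1% of their level in clusters 0, 1 and 2, with a median of 10.6%. *Lmo2*, *Erg*, *Lyl1* and *Tal1* lay within that range, at 7.74%, 11.4%, 12.03% and 12.7%. *Fli1* (31.0%), *Gata2* (41.3%) and *Ldb1* (99.7%) lay above it in cluster 4. In cluster 3 the markers ranged from 8.73% to 29.6%, *Gata2* stood at 50.7% and *Ldb1* at 90.9%, and the other 5 members at 13.1% to 20.6% within the range. In that cluster library suffix 2 supplied 138 of 239 cells, and without it *Tal1* went from 20.6% to 11.95%, *Fli1* from 13.1% to 8.03% and *Erg* from 14.4% to 9.21%, while the median of the markers went from 12.96% to 8.89%.

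The same measure placed *Erg* apart from the other members in clusters 5 and 6. In cluster 6 the endothelial markers stood at 8.74% to 27.3% (median 17.4%) and *Erg* at 12.1%, inside their range, and none of the other 6 members was below 70.4%. In cluster 5 *Erg* stood at 22.3%, just above the highest of the 8 markers (*Egfl7*, 21.4%), and without library suffix 2 it was at 21.01% against a highest marker of 19.6%. *Fli1*, *Lmo2* and *Ldb1* stood at 56.5%, 63.9% and 73.6% in cluster 5, and *Gata2*, *Tal1* and *Lyl1* at 122.1%, 125.2% and 169.3%. *Erg* and the endothelial markers were thus both low in these clusters, but they did not move together between them. From cluster 5 to cluster 6 the endothelial list went from 5.21 (libraries 4.385–7.15) to 6.55 (5.87–7.97). *Erg* went from 0.199 to 0.109. The part of free RNA or of remaining endothelial RNA in the level of *Erg* was not tested.

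**Figure D2:**
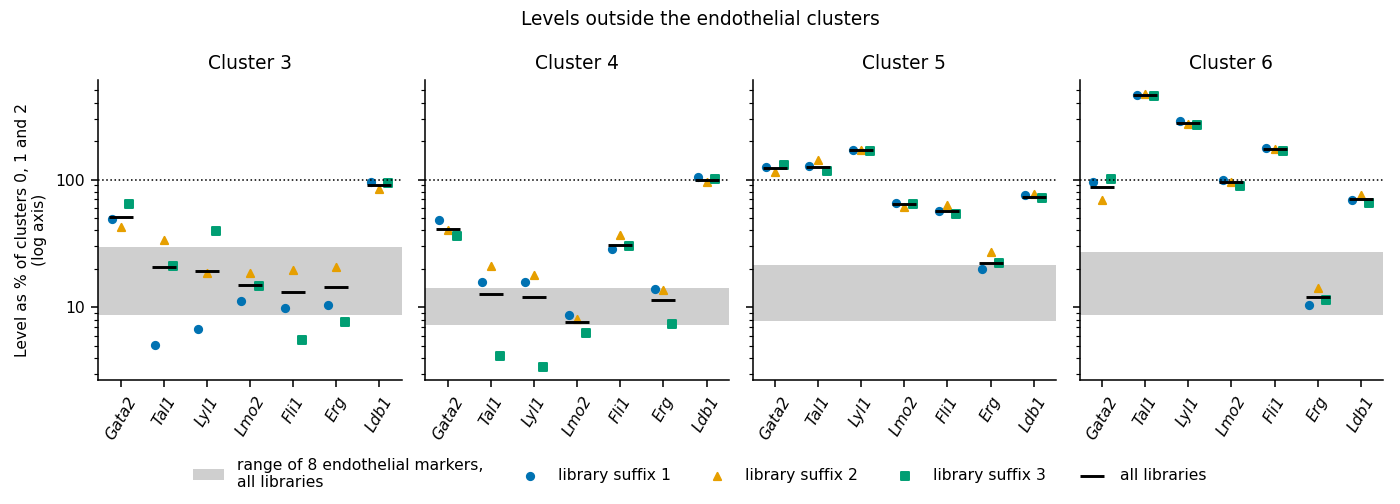
Level of each gene in clusters 3, 4, 5 and 6 as a percentage of its level in clusters 0, 1 and 2 (log axis, dotted line at 100%). Black dashes are all libraries, coloured points single libraries and the grey band the range of the 8 endothelial markers: in cluster 6 *Erg* (12.1%) lies in the band and *Tal1* reaches 457.8%.

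Comparisons of clusters were read against all genes. A gene was called when the level differed at least 2-fold and in the same direction in all 3 libraries, over 9,938 genes with at least 0.05 UMIs per 10,000 in all cells, which included the 7 members. The comparisons with clusters 0, 1 and 2 share those cells, and no overlap between comparisons was computed. Library suffixes are of unknown pool, so a call describes these libraries.

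Between cluster 6, where the megakaryocyte list was high, and clusters 0, 1 and 2, 3 of the 7 members were called, 2 higher and 1 lower, against 28.4% of all genes (8.10% higher and 20.3% lower). *Tal1* was 4.58-fold higher (log2 ratio 2.19, 2.11 to 2.28), with log2 ratios of 2.17 to 2.23 in the libraries. *Lyl1* was 2.78-fold higher (1.48, 1.39 to 1.56), and *Erg* 8.25-fold lower (-3.04, -3.32 to -2.78). *Fli1* was 1.72-fold higher in cluster 6 and not called, and *Lmo2* had a log2 ratio of -0.06 (-0.11 to -0.01). The median log2 ratio was -0.06 over the members and -0.15 over all genes tested. Between cluster 6 and cluster 5, *Tal1* (3.655-fold) and *Fli1* (3.05-fold) were called higher and none lower, against 16.2% of all genes called, 6.90% higher and 9.31% lower. *Erg* was 1.84-fold lower in cluster 6 than in cluster 5, in all 3 libraries, below the fold required.

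Between cluster 5 and clusters 0, 1 and 2, only *Erg* was called, 4.49-fold lower (log2 ratio -2.17, -2.25 to -2.08, libraries -2.31 to -1.89), against 25.8% of all genes called, 8.06% higher and 17.8% lower. *Lyl1* was 1.69-fold higher in cluster 5 (0.76, 0.71 to 0.81), and *Tal1* and *Gata2* had log2 ratios of 0.32 and 0.29. *Fli1* and *Lmo2* were 1.77-fold and 1.56-fold lower. The sign for *Gata2* rested on cluster 2, which supplied most of the endothelial cells. With clusters 0, 1 and 2 weighted equally, the log2 ratio of *Gata2* was -0.45.

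Within endothelium, cluster 0 had *Gata2* at 3.12-fold (log2 ratio 1.64, 1.54 to 1.74) and *Lyl1* at 2.04-fold (1.03, 0.93 to 1.13) the level of cluster 2. These 2 members were called higher and none lower, against 11.4% of all genes called, 8.17% higher and 3.25% lower. The call for *Lyl1* was at the edge, and it was lost under median-of-ratios scaling and without library suffix 1. The remaining members had log2 ratios from -0.10 (*Lmo2*) to 0.56 (*Tal1*). Cluster 1, whose 6 macrophage markers summed to 4.00 against 0.0941 in cluster 2, had *Lmo2* 2.58-fold below cluster 2 (-1.37, -1.455 to -1.28) as its only call, against 27.9% of all genes called either way and 16.4% called higher. *Gata2* stood at a log2 ratio of 0.98 there, just under the fold required, with 0.54, 0.92 and 1.59 in the libraries. The other 5 members in cluster 1 had log2 ratios between -0.49 and 0.43.

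In cluster 3, 5 members were called lower than in clusters 0, 1 and 2 (*Tal1*, *Lyl1*, *Lmo2*, *Fli1* and *Erg*, by 4.85-fold to 7.64-fold), against 34.7% of all genes called, 26.4% lower and 8.25% higher. Without library suffix 2 the folds were 8.37 for *Tal1*, 12.5 for *Fli1* and 10.9 for *Erg*, and without suffix 3 that of *Lyl1* was 7.99. Other omissions gave smaller folds. With each library left out in turn, log2 ratios ran from -3.065 to -1.80 for *Tal1* and from -3.00 to -1.88 for *Lyl1*. They ran from -3.64 to -2.70 for *Fli1* and from -3.44 to -2.60 for *Erg*. With all libraries these 4 ratios were -2.28, -2.37, -2.93 and -2.80. *Gata2* missed the fold with a log2 ratio of -0.98 and was called lower, as a sixth member, without suffix 3. In cluster 4, 6 members were called lower, all but *Ldb1*, against 15.8% of all genes called, 8.64% lower and 7.20% higher, and the folds ran from 2.42 (*Gata2*) to 12.9 (*Lmo2*). The median over the members was -2.98 in cluster 4 beside 0.08 over all genes tested. *Ldb1* had a log2 ratio of -0.0043 (-0.12 to 0.11) in cluster 4.

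Co-detection was counted in cells thinned to 5,000 UMIs, so that deep and shallow clusters could be compared. This left out 90 cells, 54 of them in cluster 1, and kept 9,472. At this depth cells of cluster 0 held on average 2.855 of the 7 genes and cells of cluster 6 held 2.66. For clusters 2, 1, 5, 3 and 4 the mean was 2.275, 1.92, 1.78, 0.883 and 0.596. Cells with at least 4 of the 7 genes made up 30.5% of cluster 0 (27.1–34.0%, library range 26.1–37.0%), and the share was 23.0% for cluster 6 (18.4–28.1%, libraries 12.2–26.3%). Clusters 2, 1 and 5 had shares of 13.6%, 10.1% and 8.67%, and clusters 3 and 4 gave 1.67% and 0.781%. The last pair includes *Gata2*, *Ldb1* and, in cluster 4, *Fli1*, whose levels there were above the range of the endothelial markers, so it is no measure of free RNA alone. Clusters 0 and 6 thus carried the most members per cell, with different genes in front. *Lyl1* was detected in 34.5% of the thinned cells of cluster 0 and 42.1% of cluster 6, *Erg* in 40.2% against 7.77%, *Gata2* in 33.0% against 14.2% and *Tal1* in 21.5% against 52.1%.

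**Figure D3:**
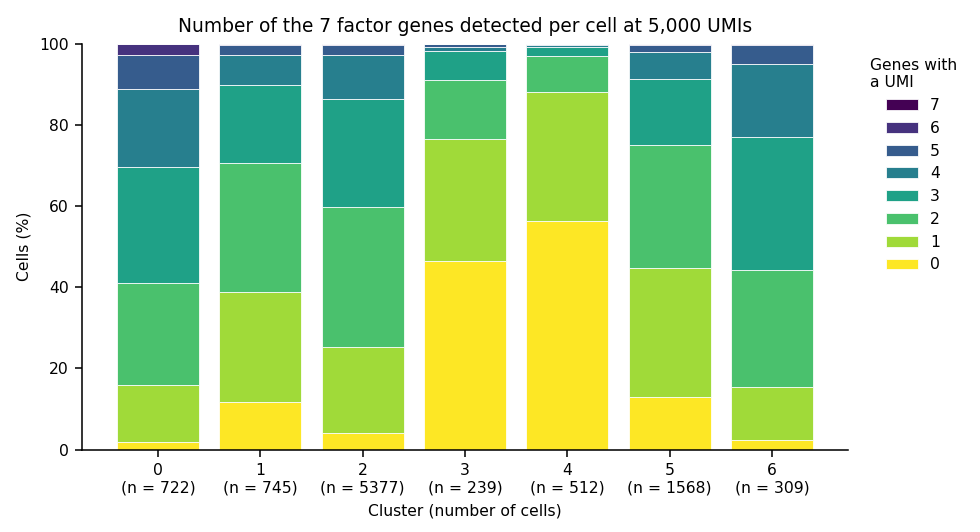
Share of cells (%) in each cluster in which 0 to 7 of the 7 genes had at least 1 UMI after thinning to 5,000 UMIs per cell. Dark colours mark many genes: 4 or more were found in 30.5% of cluster 0 and 23.0% of cluster 6, and 0 genes in 56.25% of cluster 4.

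No thinned cell held a UMI of all 7 genes (0 of 9,472, upper exact limit 0.0389%), which limits detection in a draw of 5,000 UMIs and says nothing of how many cells express them. At full depth 1,009 cells (10.6%) had at least 1 UMI of all 7. Cluster 2 supplied 679 of them, cluster 5 170, cluster 0 116, cluster 6 25, cluster 1 11, and clusters 3 and 4 together 8. *Runx1* was present as well in 166 of the 170 cells of cluster 5 and 24 of the 25 of cluster 6, against 34 of 116 in cluster 0 and 34 of 679 in cluster 2. Over all cells of clusters 5, 6, 0 and 2, *Runx1* was above 0.5 CPTT, a cut that differs from 1 UMI, in 69.7%, 83.55%, 9.615% and 1.74%. Deeper cells hold UMIs of more genes, and the depth of the cells with all 7 is not given. These shares are therefore no like-for-like baseline for the *Runx1* counts. Median depth was 36,065.5 UMIs in cluster 5 and 14,061 in cluster 0, so these counts at full depth do not rank the clusters.

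Within clusters 0, 2 and 6 the genes were detected together about as often as their single shares predict. Of the 21 pairs, the product of the 2 shares lay inside the 95% interval of the joint share for all 21 in each of clusters 0, 2 and 6, and the median ratio of joint share to product was 1.04, 1.011 and 1. In cluster 5, 3 pairs were found together more often than the product. *Gata2* with *Tal1* occurred in 4.08% of cells (3.16–5.18%) against a product of 2.57%, *Fli1* with *Erg* in 5.42% against 3.58% and *Gata2* with *Erg* in 2.105% against 1.42%. The ratio for *Gata2* with *Tal1* was 1.27 to 2.60 in the libraries. Cluster 5 holds classes of cells, described below, between which *Gata2*, *Tal1* and *Erg* differed. The part of this mix in the joint shares of cluster 5 was not tested. *Fli1* with *Ldb1* was the only such pair in cluster 1 (9.26% against 7.26%). Clusters 3 and 4 had 4 such pairs each, resting on 15 cells or fewer. With *Runx1* as an eighth gene, *Tal1* was found with it in 3.05% of the cells of cluster 0 (22 cells, 1.92–4.58%) against a product of 1.40%, and the ratio was 1.89 to 3.02 in the libraries. *Gata2* with *Runx1* was found in 7.08% of the cells of cluster 5 against a product of 5.44% (ratio 1.19 to 1.51 in the libraries). *Fli1* with *Runx1* went the other way in cluster 1, at 0.671% (5 cells) against 2.16%.

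Cells of cluster 5 differed in the marker list that led, and the members differed with it. Cells were set apart by the marker list that led in them, with at least 10 CPTT in sum and 5 times each other list. The granulocyte list (*Mpo*, *Elane* and others) led in 185 cells, the macrophage list (*C1qa*, *Csf1r* and others) in 588, the mast cell list in 3, and 796 cells (50.6%) were led by none. None of the members is on these lists. These classes are cuts through a range, with 69 cells within 2 CPTT of the minimum and 39 leading 4-fold to 6-fold. Of the cells led by none, 97 had a list at 10 CPTT or more that led by under 5-fold.

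*Gata2* differed most between these classes. It was at 0.714 UMIs per 10,000 in cells led by the granulocyte list (0.661–0.771, libraries 0.6225–0.926) and at 0.0446 in cells led by the macrophage list (0.0361–0.0545, libraries 0.0290–0.07635), a 16.01-fold difference (log2 ratio 4.00, 3.69 to 4.33). In the cells led by none it was at 0.529, with all 3 libraries within 0.522 to 0.533. The level in macrophage-led cells was below that of clusters 3 and 4 together (0.144). *Erg* was also lowest in macrophage-led cells, at 0.202, 0.0798 and 0.282 in granulocyte-led cells, macrophage-led cells and those led by none. Against clusters 0, 1 and 2 these were 22.5%, 8.91% and 31.5%, beside endothelial markers at 4.61–14.6%, 7.43–15.9% and 9.05–27.3% in the same cells. *Erg* therefore lay inside the range of the endothelial markers in macrophage-led cells and above all 8 in the other classes.

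The remaining members differed less, and *Fli1* went the other way. *Lmo2* was at 1.73, 1.16 and 2.96 in granulocyte-led cells, macrophage-led cells and those led by none, and *Tal1* at 0.290, 0.221 and 0.576. *Lyl1* was at 0.728, 0.559 and 0.841, and *Ldb1* at 0.350, 0.275 and 0.533. *Fli1* was at 0.654, 0.838 and 0.7185, so macrophage-led cells had 1.28-fold more than granulocyte-led cells. Of these 3 classes, leaving aside the 3 cells led by the mast cell list, the class led by none was the highest for *Tal1*, *Lmo2*, *Lyl1*, *Erg* and *Ldb1*, except that for *Lyl1* granulocyte-led cells were higher in library suffix 2 (0.840 against 0.7945). It also carried the progenitor genes *Kit* (0.579), *Cd34* (2.35) and *Myb* (1.08), of which granulocyte-led cells had 0.327, 2.48 and 1.05, and the erythroid genes *Klf1* (0.598) and *Gata1* (0.379), against 0.0136 and 0.0061 for the last pair in macrophage-led cells. The 5 erythroid markers together were at 5.35 in this class with libraries from 1.71 to 7.83. The endothelial list was at 6.365 in this class, against 3.386 in granulocyte-led and 4.354 in macrophage-led cells.

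**Figure D4:**
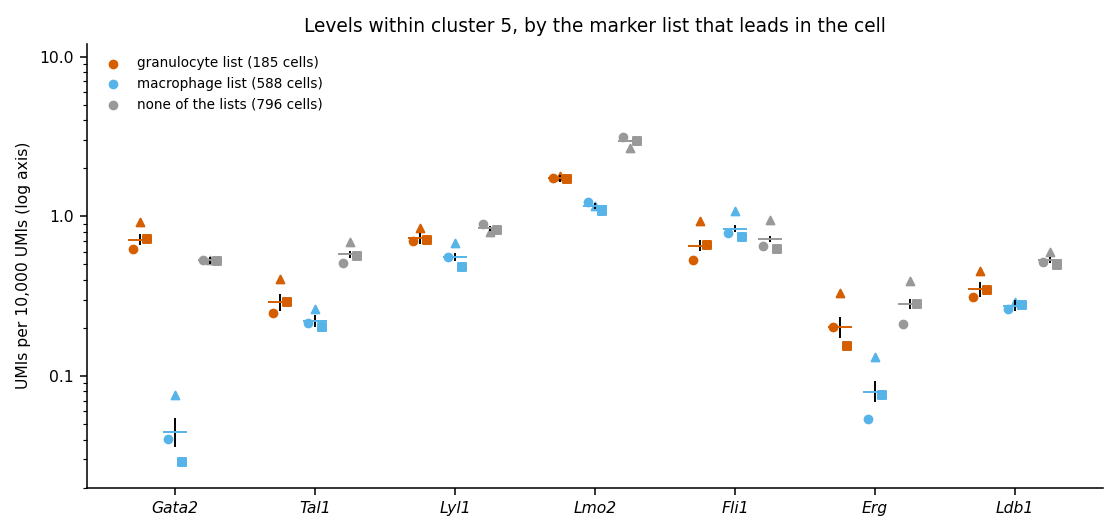
Levels within cluster 5 (UMIs per 10,000 UMIs, log axis) in cells led by the granulocyte list, the macrophage list or none. Dashes are all libraries with black 95% counting intervals, and circles, triangles and squares are library suffixes 1, 2 and 3: *Gata2* is at 0.0446 in macrophage-led cells and at 0.529 or more in the others.

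A small set of cells had *Gata2* far above the rest of cluster 5. In 12 cells of cluster 5 *Cpa3*, which encodes a mast cell protease, was above 5 CPTT, a split chosen after the values were seen, and 7 cells lay between 4 and 6 CPTT. They came from all 3 libraries (3, 5 and 4 cells). *Gata2* stood at 4.00 in these cells (3.415–4.66), and they held 166 of the 2,393 *Gata2* UMIs of the cluster (6.94%). *Lmo2* was nearly missing from them, with 4 UMIs (0.0964, 0.0263–0.247) against 2.16 in the other cells of cluster 5. *Tal1* was at 0.289 and *Lyl1* at 0.458 there, on 12 and 19 UMIs.

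Members were also compared between cells of the same cluster with and without a *Runx1* UMI at 5,000 UMIs. This keeps the mix of clusters out of the ratio. In cluster 0, 47 cells had *Runx1* and 675 did not, with median depths of 19,975 and 13,852 UMIs. *Tal1* was at 0.7925 with *Runx1* and 0.435 without (log2 ratio 0.87, 0.52 to 1.20, libraries 0.68 to 0.98). *Lmo2* was lower with *Runx1*, at 2.02 against 3.375 (-0.74, -0.94 to -0.54, libraries -0.94 to -0.62). The ETS members were level, with log2 ratios of -0.0017 (-0.23 to 0.22) for *Fli1* and -0.05 (-0.35 to 0.23) for *Erg*, and *Gata2*, *Lyl1* and *Ldb1* also had intervals that included 0. In the same cells the endothelial list was at 34.6 against 54.3 and the arterial list at 12.6 against 23.3, while the part of these cells' lower endothelial RNA in the ratios was not tested. The megakaryocyte list was at 0.2915 against 0.267, the macrophage list at 0.146 against 0.118 and the granulocyte list at 0.0729 against 0.0672. The erythroid list was lower with *Runx1*, at 0.0820 (9 UMIs) against 0.784 (898 UMIs). Over all cells of cluster 0 the erythroid list ran from 0.0857 to 2.16 in the libraries. *Spi1*, an ETS factor of myeloid cells, was at 0.401 against 0.103.

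In cluster 1 the picture was different. Of its cells 36 had *Runx1*, and there *Fli1* (log2 ratio -1.04, -1.62 to -0.51) and *Erg* (-0.97, -1.59 to -0.41) were lower than in the 709 cells without it. The endothelial list was lower in them too (24.2 against 54.8), and the macrophage list (18.0 against 3.36), the granulocyte list (7.34 against 0.299) and the megakaryocyte list (10.3 against 1.51) were higher. The part of blood-cell RNA in these ratios was not tested, and for *Fli1* and *Lmo2* library suffix 3 gave no ratio. In cluster 2, with 79 cells, 53 of them from library suffix 2, the members had log2 ratios between -0.10 and 0.27. The megakaryocyte list was at 0.796 in them against 0.230, the macrophage list at 0.314 against 0.0917 and the granulocyte list at 0.281 against 0.0720. The endothelial list (36.3 against 38.3) and the erythroid list (0.0736 against 0.113) were lower in them. In cluster 5, *Gata2* was at 0.553 in the 637 cells with *Runx1* and 0.282 in the 931 without (0.97, 0.855 to 1.09), *Erg* at 0.252 and 0.164 (0.62, 0.46 to 0.78), and *Lmo2* at 1.93 and 2.29. The mix of cells moved with this split. The granulocyte list was at 11.1 with *Runx1* and 18.7 without, the erythroid list at 0.551 and 4.45, the mast cell list at 0.306 and 0.162 and the macrophage list at 18.4 and 18.1, and their part in the ratios of *Gata2* and *Erg* was not tested. In cluster 6, *Erg* was lower with *Runx1* (-0.80, -1.35 to -0.25) but the libraries ran from -1.60 to 0.15 and *Cdh5* was lower too (-0.54), and the other members were within -0.08 and 0.19.

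**Figure D5:**
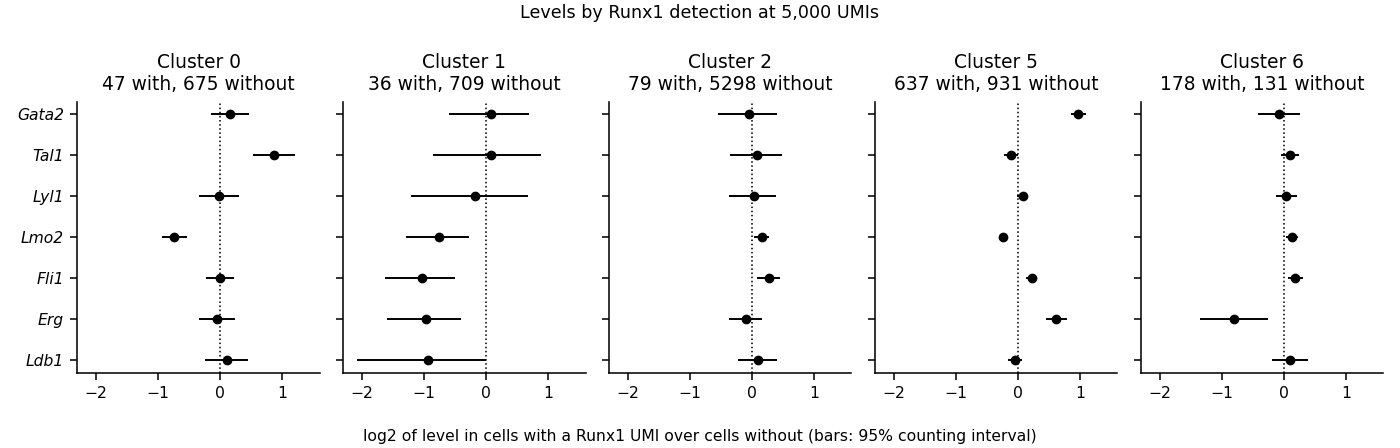
Log2 ratio of the level of each gene in cells with a *Runx1* UMI over cells without, within clusters 0, 1, 2, 5 and 6 (points, all libraries; bars, 95% counting interval; dotted line, no difference). In cluster 0 *Tal1* lies at 0.87 and *Lmo2* at -0.74 with *Fli1* and *Erg* at the line, and in cluster 5 *Gata2* lies at 0.97.

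Likeness of profile was described by Pearson's r of log2 levels (with 0.01 added) over 21 groups, namely 7 clusters in 3 libraries, which share cells' depth and the cluster structure. Among the members *Tal1* and *Lyl1* were most alike (r = 0.955), and among all 9,938 genes each was the closest to the other. *Lyl1* with *Lmo2* had r = 0.919 and *Tal1* with *Lmo2* r = 0.8825. *Erg* had r = 0.322 with *Tal1* and 0.562 with *Fli1*, and *Ldb1* had between -0.30 and 0.26 with the other members. The genes closest to *Erg* were *Rasgrp3* (r = 0.993), an activator of RAS proteins, *Arap3* (0.988) and *Fgd5* (0.987), an exchange factor for CDC42 found in endothelium. They stood at 0.157 to 0.244 UMIs per 10,000 in cluster 5 and 0.101 to 0.126 in cluster 6, beside 0.199 and 0.109 for *Erg*. *Gata2* was closest to *Ehd4*, *Sh2b3* and *Clptm1* (0.905 to 0.921), of which *Sh2b3* encodes an adaptor that restrains cytokine signalling. *Lmo2* was closest to *Spns2*, which encodes a sphingosine-1-phosphate transporter of endothelium, *Vamp5* and *Klhl6* (0.938 to 0.954). *Fli1* was closest to *Vav3*, *Tram1* and *Slc44a2* (0.952 to 0.966), and *Ldb1* to *Ddb1*, *Cpxm1* and *Prom1* (0.910 to 0.935).

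A list of 39 partner genes was followed with the members, of which 33 reached the minimum level. The list was chosen with earlier results of these data known. In cluster 6 against clusters 0, 1 and 2, 8.10% of all genes were called higher and 20.3% lower. Of the partners, 9 were called higher and 17 lower (median log2 ratio -1.06). The higher ones included *Runx1* itself (5.07), the GATA factor *Gata1* (8.85) with its cofactor *Zfpm1* (2.94), the repressor *Gfi1b* (8.20), the co-repressor *Cbfa2t3* (1.21), which joins TAL1 complexes, *Ssbp2* (1.38), which stabilises LDB1, and the ETS gene *Elf1* (2.90). All 3 *Id* genes, whose products hold bHLH partners off DNA, were called lower (-3.08 to -2.16), as were the bHLH partners *Tcf4* (-2.15) and *Tcf3* (-1.06), *Cbfb* (-1.63), which stabilises RUNX1 on DNA, the second LDB gene *Ldb2* (-3.18), and the ETS genes *Ets1* (-3.26), *Ets2* (-2.71) and *Elk3* (-3.00). Of the 6 ETS partners tested, *Elf1* and *Spi1* (2.35) were called higher, *Ets1*, *Ets2* and *Elk3* lower and *Etv6* (0.39) neither, beside *Fli1* at 1.72-fold higher and *Erg* called lower.

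In cluster 5 against clusters 0, 1 and 2, 8.06% of all genes were called higher and 17.8% lower. Of the partners, 7 were called higher and 14 lower (median -0.79). *Spi1* (6.28), *Gata1* (6.05), *Myb* (5.73), *Gfi1b* (5.27), *Runx1* (4.72), *Elf1* (2.13) and the LIM-only gene *Lmo4* (1.37), which encodes a further partner of LDB1, were higher. *Ets1* (-3.32), *Ldb2* (-2.82), *Elk3* (-2.23), *Tcf4* (-1.90) and all 3 *Id* genes (-2.88 to -1.07) were among the lower. Between cluster 6 and cluster 5, 6.90% of all genes were called higher and 9.31% lower. Of the partners, 3 were called higher (*Gata1* 2.80, *Zfpm1* 2.24 and *Gfi1b* 2.92) and 11 lower, with *Spi1* at -3.93 and *Myb* at -2.86.

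Within endothelium, 8.17% of all genes were called higher and 3.25% lower in cluster 0 against cluster 2. Of the partners, 11 were called higher and 0 lower. They included *Gata6* (3.97), *Mecom* (3.04), a factor of arteries and of blood stem cells, *Gata3* (2.79), *Procr* (2.63), a surface receptor of both, *Cbfa2t3* (1.78) and *Runx1* (4.09). *Spi1* (2.97) and *Myb* (2.51) were also called higher. In cluster 1 against cluster 2, 27.9% of all genes were called either way and 16.4% higher. Of the partners, 12 were called higher and 3 lower. *Spi1* (4.49), *Procr* (3.57), *Elf1* (2.56), *Kit* (2.36) and *Tcf4* (1.61) were among the higher, and *Gata3* (-1.16), *Zfpm2* (-1.67) and *Ssbp2* (-1.53) were the lower ones. *Spi1* was above 0.5 CPTT in 7.885% of the cells of cluster 1. The macrophage list was at 4.00 there (libraries 0.8715 to 5.64), and the part of macrophage RNA in the *Spi1* ratio was not tested. In cluster 3 against clusters 0, 1 and 2, 4 partners were called higher and 20 lower, beside 8.25% and 26.4% of all genes. In cluster 4, 9 were higher and 11 lower, beside 7.20% and 8.64% of all genes. Among the higher in cluster 4 were *Runx1t1* (4.69), *Gata6* (2.29), *Ssbp2* (1.78) and *Lmo4* (1.69).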

How the data were processed

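Per the labels and the study's methods, 10x Genomics 3′ v3 libraries were processed by the authors with Cell Ranger 3.1.0 on mm10 (GRCm38), aggregated with batch-effect removal and limited to singlets. The labels also name Seurat 3.1.5 without a role. Values used here are the unnormalised UMI counts deposited by the authors. The authors' normalized values, the natural log of 1 plus counts per 10,000 UMIs, served as a check and were recomputed from the counts to within 6.2e-15. Clusters are the authors' Leiden clusters, from a similarity graph with 10 neighbours, and their plot coordinates were not used. The gene annotation used by the authors is not given in the sources used here.

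Of 27,998 identifiers, 27,722 were named from GENCODE M21 and 276 kept their identifier. Counts of 11 repeated names were summed. Member genes, partner and marker lists were chosen with earlier results of these data known. Named genes are the 7 members, 39 partners, the 3 genes most like each member and the markers, and others are said to be named after their values were seen.

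Levels are UMIs per 10,000 of the group, with exact Poisson intervals. Shares have Clopper–Pearson intervals and ratios have exact conditional binomial intervals, all at 95%. No test was run: clusters were made from the same counts, and the matrix was treated as 1 sample because no source ties a barcode suffix to a sample or a cell to a time. A test over the 3 within-library differences was not run. A gene was called at 2-fold in the same direction in all 3 libraries, with at least 0.05 UMIs per 10,000 over all cells. Thinning drew 5,000 UMIs per cell without replacement (seed 1). No doublet caller was run, because the study states that singlets were kept, and the deepest 10% of cells were left out in an alternative. The script for comparisons was tested on simulated data with 200 changed genes in each of the 7 comparisons. Promoter sequences are from RefSeq on GRCm38.p6. Lmo2 and Fli1 had no window. Scripts ran under Python 3.11.15 with scipy 1.17.1 for intervals, numpy 2.4.6, pandas 2.3.3 and, for plots, matplotlib 3.10.9.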

Additional observations from a re-analysis of the deposited data

How the results depend on the processing

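No paired analysis was possible because no result comes from a test. Library suffixes are tied to no replicate number, and within-library ratios are given as values. None of the 20 called log2 ratios of members changed sign under the alternatives computed. Of the 29 that were not called, 6 changed sign under at least 1 setting. Among them *Gata2* in cluster 5 against clusters 0, 1 and 2 went from 0.29 to -0.45 with the 3 clusters weighted equally, which gives the small clusters 0 and 1 more weight.

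At 1.5-fold in place of 2-fold, 1 member was called higher and 3 lower in cluster 5 against clusters 0, 1 and 2, 3 higher and 1 lower in cluster 6 against clusters 0, 1 and 2, 6 lower in cluster 3, 4 higher and 1 lower in cluster 6 against cluster 5, and 1 higher in cluster 1 against cluster 2. At 3-fold, 1 was higher in cluster 6 against clusters 0, 1 and 2, and 1 was higher in cluster 0 against cluster 2. In cluster 1 against cluster 2, 0 were lower, and in cluster 4 the fold of *Gata2* was below this cut. Without the deepest 10% of cells 1 member was higher in cluster 1 against cluster 2. Median-of-ratios scaling shifted log2 ratios by -0.107 to 0.166 and left 1 member higher in cluster 0 against cluster 2. Leaving out each library gave 0 to 1 higher in cluster 1 against cluster 2 (1 without suffix 1 and 1 without suffix 2) and 1 to 2 in cluster 0 against cluster 2 (1 without suffix 1).

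With 10,000 UMIs per cell, at least 4 of 7 members were found in 70.1%, 33.6%, 46.2%, 4.62%, 2.32%, 26.3% and 58.7% of the cells of clusters 0 to 6, over the deeper cells that remained (268 of 799 in cluster 1). With at least 2 UMIs for detection the shares were 1.25%, 0.134%, 0.130%, 0%, 0%, 0% and 0.971%. Leaving out each library in turn gave 26.3% to 33.1% in cluster 0, 10.9% to 15.1% in cluster 2 and 6.50% to 10.6% in cluster 5, in each case lowest without suffix 2.

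Counts of all genes called in the 7 comparisons, in the order cluster 5, 6, 3 and 4 against clusters 0, 1 and 2, cluster 6 against 5, and clusters 1 and 0 against 2, were 2566, 2823, 3446, 1575, 1611, 2774 and 1135. They were 4074, 4267, 5368, 2963, 2905, 4775 and 2770 at 1.5-fold, 6261, 5038, 6136, 4947, 3379, 5008 and 2755 with no minimum level, and 1265, 1448, 1891, 744, 770, 1405 and 477 at a minimum of 0.2. At 3-fold, those for clusters 3 and 4 and the 3 that follow them were 2002, 855, 901, 1522 and 489. Removal of the *Cpa3* cells, chosen after seeing the data, took *Gata2* in cluster 5 from 0.392 to 0.367. A member absent from a thinned cell was not among the 5,000 UMIs drawn, which does not show that the cell lacked it, and counting intervals cover no difference between animals or cultures.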
